A study of Mus musculus with 6 samples.

Results

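The R-spondins, their Lgr receptors and the Wnt co-receptors Lrp4, Lrp5 and Lrp6 were examined in mouse dental epithelium with and without epithelial *Wnt10a*. These are 10 genes of the 55487 in the table, chosen by name with earlier results of these data known. They are the 4 R-spondins (*Rspo1*, *Rspo2*, *Rspo3* and *Rspo4*), the 3 receptors (*Lgr4*, *Lgr5* and *Lgr6*) and the 3 co-receptors. All 10 symbols were found, each for a single gene. RNA-seq was performed on the dental epithelium of mandibular first molars from postnatal day 2.5 (PN2.5) mice, in 3 control libraries and 3 cKO libraries. Control mice carried the genotype Wnt10aflox/flox and cKO mice the genotype K14-Cre;Wnt10aflox/flox, so both groups carried the floxed *Wnt10a* allele and only the cKO mice carried Cre. Cre was driven by the keratin 14 promoter, which is active in epithelial cells, so other cells in a sample would keep *Wnt10a*. Each library was a pool of epithelium from several molars (4 in the design text, 5 in the methods), the mice were not separated by sex, and the 3 libraries of a group are labelled as biological replicates. Levels are TPM, values scaled to gene length and then to a fixed library total. Levels of different genes can thus be compared, apart from trends with transcript length described below. The sequencing depth of a library cannot be recovered.

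R-spondins are secreted proteins that strengthen Wnt signaling. They bind Lgr receptors and, together with them, draw the membrane ubiquitin ligases Rnf43 and Znrf3 away from the Frizzled receptors, which these ligases would otherwise remove from the cell surface. Lrp5 and Lrp6 stand beside Frizzled in the Wnt receptor complex and carry the signal into the cell through their phosphorylated tails. Lrp4 belongs to the same receptor family, binds the secreted inhibitor Sostdc1 (also called Wise or ectodin) and the matrix protein agrin, and is known in teeth because loss of Lrp4 or of Sostdc1 changes tooth number in mice.

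The targeted gene differed between the groups in every library. *Wnt10a* stood at 55.96, 51.20 and 57.86 TPM in the control libraries and at 22.69, 21.79 and 32.22 TPM in the cKO libraries, in the order of their replicate numbers. The cKO mean was 46.5% of that in control, and the log2 fold change was -1.10 (unadjusted p = 0.000653 by limma, adjusted p = 0.747), and a level per gene does not show which exons the remaining reads covered. Epithelial markers were high in every library, as *Krt14* (keratin 14) ranged from 2190 to 2773 TPM and none of the 10 epithelial markers was called. They summed to 205000 to 246000 TPM in control and 101000 to 215000 TPM in cKO, and the lowest sum, that of cKO replicate 2, came with 85454 TPM of the enamel matrix gene *Amelx* where the other libraries held 163351 to 203538 TPM. Summed over 12 markers of mesenchyme and odontoblasts, control libraries held 3625 to 7287 TPM and cKO libraries 4760 to 5423 TPM, with 0 of 12 called and none at 0. The 6 endothelial markers summed to 67.7 to 108 TPM in control against 56.3 to 78.8 TPM in cKO, with 2 called lower, and the 7 blood and immune markers to 1330 to 1980 TPM against 1160 to 1280 TPM, with 1 of 6 tested called lower and every cKO library below every control. The 5 nerve and glia markers summed to 107 to 119 TPM in control against 91.4 to 139 TPM in cKO with none of 4 tested called, and the 6 muscle markers reached at most 2.24 TPM and were not tested.

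**Figure D1:**
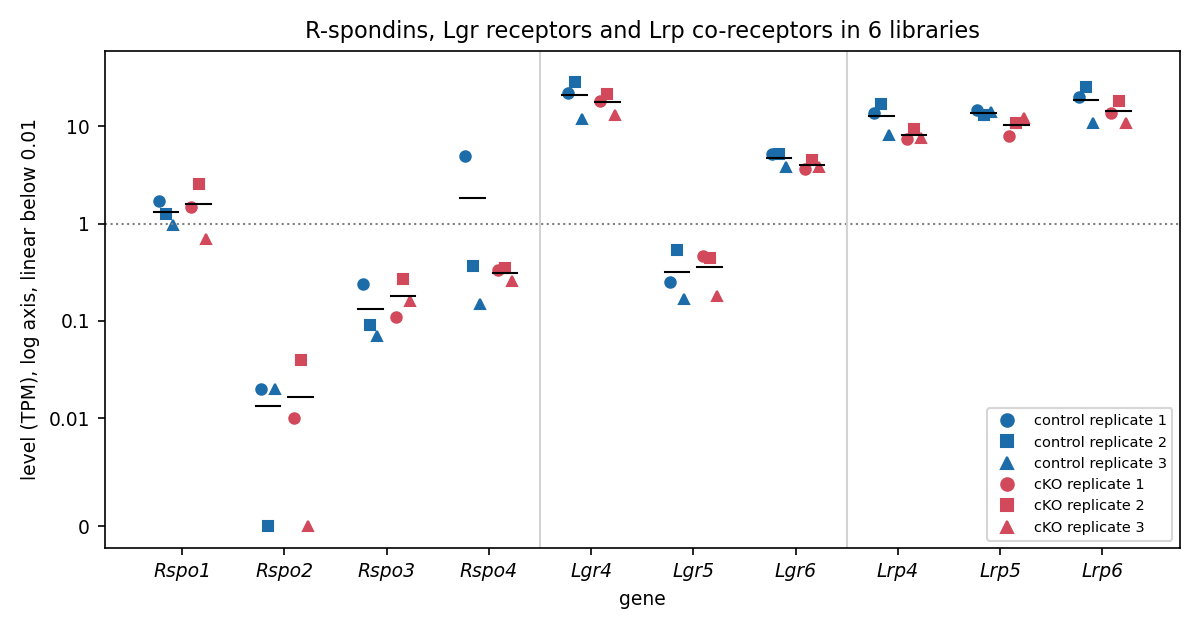
Level of each of the 10 genes (vertical axis, TPM, logarithmic above 0.01 and linear below) in each of the 6 libraries, control in blue and cKO in red, with a marker shape for each replicate number and a black bar at the mean of the 3 libraries. *Lgr4* and the 3 Lrp genes lie between 7.45 and 28.78 TPM in every library, *Rspo2*, *Rspo3* and *Lgr5* stay under 1 TPM (dotted line), and control replicate 1 stands apart for *Rspo4*.

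*Lgr4*, *Lgr6* and the 3 co-receptors were above every R-spondin in each of the 6 libraries, as the plot of levels by library shows, while *Lgr5* was below *Rspo1* in all 6. By the mean of the control libraries the order of the levels in TPM was *Lgr4*, *Lrp6*, *Lrp5*, *Lrp4*, *Lgr6*, *Rspo4*, *Rspo1*, *Lgr5*, *Rspo3* and *Rspo2*. Each pair of neighbours in this order was compared within the 6 libraries by an exact two-sided sign-flip permutation test on the log2 ratio, with adjustment over the 9 pairs. Of the 9 pairs, 6 kept their order in 6 of 6 libraries, each with an adjusted p of 0.0468. Their unadjusted p of 0.0312 is the smallest that this test allows with 6 libraries. The control libraries had also set the order, so these p describe its steadiness and are no independent test of it. *Lgr5* above *Rspo3* and *Rspo3* above *Rspo2* were among the 6, at levels under 1 TPM in every library. *Lrp6* lay above *Lrp5* in 4 of 6 libraries (adjusted p = 0.175) and *Lrp5* above *Lrp4* in 5 of 6 (adjusted p = 0.25), so neither of these orders exceeded the spread between libraries. *Lrp6* was above *Lrp4* in 6 of 6 libraries, a pair that was not tested because the genes are not neighbours in the order. *Rspo4* lay above *Rspo1* in 1 of 6 libraries, control replicate 1 (adjusted p = 0.121), and its place in the order rests on that library.

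Between the groups, none of these genes met the criteria the study's methods state for RNA-seq, an unadjusted p below 0.05 and a change of more than 20%. The test was limma over the 13719 genes that averaged 1 TPM or more, on log2(TPM + 1), where changes of low genes appear smaller than they are. *Rspo2*, *Rspo3* and *Lgr5* averaged less and were not tested, so the count was 0 of 7 tested genes, where 4.02% of all genes tested were called (2.47% lower and 1.55% higher in cKO). At an adjusted p below 0.05 the count was also 0 of 7 (0.0146% of all genes tested), and each of the 7 had an adjusted p of 1.00. With an unadjusted p below 0.05 as the sole criterion the count was again 0 of 7. Leaving out *Rspo4*, which passed the filter through a single library, the log2 fold change was below 0 for 5 of 6 genes, with a median of -0.25, beside 60.3% of all genes tested and a median of -0.07. The direction of calls over all genes depended on the scaling, with 213 higher and 339 lower as reported, 324 and 325 after quantile normalization, 347 and 287 once transcript length and GC content were corrected for, and 104 and 651 after *Amelx*, *Ambn* and all noncoding genes were left out of the library total. Complete separation of the groups was seen for 1 of the 7, *Lrp5*, whose cKO libraries were all below the control libraries, a pattern that 6.13% of all genes tested shared (9.64% were separated in either direction).

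*Rspo1* encodes the R-spondin known for its role in ovary development and was the ligand with the highest level in 5 of 6 libraries. It lies on chromosome 4 (GRCm38 chr4:124986430-125009099, plus strand). Levels were 1.72, 1.25 and 0.96 TPM in control replicates 1 to 3 and 1.47, 2.57 and 0.70 TPM in cKO replicates 1 to 3. The cKO group held both the highest and the lowest library, and the groups overlapped. The log2 fold change was 0.11 (SE 0.34, 95% interval -0.70 to 0.91, unadjusted p = 0.763 by limma), and the direction rested on single libraries, since it was -0.16 without cKO replicate 2 and -0.0048 without control replicate 3.

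*Rspo4*, known for its requirement in nail formation, was high in a single library. It lies on chromosome 2 (chr2:151842927-151874668, plus strand). Levels were 4.94 TPM in control replicate 1, against 0.37 and 0.15 TPM in the other controls and 0.33, 0.35 and 0.26 TPM in the cKO libraries. Control replicate 1 was thus 13.4 times the next highest library, and the other 5 libraries lay within a narrow band in which the groups overlapped. The log2 fold change of -0.68 (SE 0.62, 95% interval -2.13 to 0.76, unadjusted p = 0.303) turned to 0.06 without control replicate 1. *Rspo4* passed the filter on low values only through that library, as its mean was 1.07 TPM over 6 libraries and 0.292 TPM over the other 5.

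The genes whose levels over the 6 libraries were most like those of *Rspo4* shared its single high library, as the measure of likeness requires for such a profile. Likeness was measured as the root mean square difference between log2(TPM + 1) values centred over the 6 libraries. *Sox5*, a transcription factor gene known from cartilage and glial development, was closest at 0.133, where the median over all genes tested was 0.843. *Sox5* stood at 4.56 TPM in control replicate 1 and at 0.13 to 0.64 TPM in the other 5 libraries. The long noncoding RNA gene *Pantr1* (0.348) and the small nucleolar RNA gene *Gm23123* (0.374) followed, at 7.67 and 8.08 TPM in control replicate 1. They were at 0 TPM in 3 and in 5 of the other libraries. Like *Rspo4*, *Sox5*, *Pantr1* and *Gm23123* passed the filter on low values only through control replicate 1. Without that library *Sox5* averaged 0.372 TPM and *Pantr1* 0.19 TPM. The summed mesenchyme and odontoblast markers were also highest in control replicate 1, at 7287 TPM against at most 5423 TPM in the other libraries. So were the summed endothelial markers at 108 TPM. Of the single markers, *Twist1*, *Lum*, *Dcn* and *Postn* were instead highest in cKO replicate 2, and the endothelial *Cldn5* in control replicate 3. The other markers of both lists were highest in control replicate 1. The part of these markers in the *Rspo4* value was not tested. In a bulk sample, fewer cells of a type and less RNA per cell cannot be told apart.

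The other ligands were barely detected. *Rspo3*, known for its role in blood vessel development, was listed at 0.24, 0.09 and 0.07 TPM in control against 0.11, 0.27 and 0.16 TPM in cKO (chr10:29452416-29535867, minus strand). *Rspo2*, known for its role in limb, lung and craniofacial development, was listed at 0.02, 0 and 0.02 TPM in control against 0.01, 0.04 and 0 TPM in cKO (chr15:43020794-43170826, minus strand). Neither gene reached 0.3 TPM in any library, and the groups overlapped for both. With no depth in the table, no limit can be set on what values this low stand for.

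*Lgr4* was the Lgr receptor with the highest level in every library, and among all 10 genes it had the highest mean. It encodes a receptor with an extracellular leucine-rich repeat domain that is expressed in many epithelia, and lies on chromosome 2 (chr2:109917647-110014257, plus strand). Levels were 22.25, 28.78 and 11.91 TPM in control replicates 1 to 3 and 18.18, 21.68 and 13.22 TPM in cKO replicates 1 to 3. In both groups replicate 2 was highest and replicate 3 lowest, and the cKO values lay inside the control range. Between the groups the log2 fold change was -0.18 (SE 0.34, 95% interval -0.97 to 0.62, unadjusted p = 0.617), and it was 0.08 without control replicate 2 and 0.0072 without cKO replicate 3. The genes most like *Lgr4* over the 6 libraries were *Efr3a* (0.0295), *Rab8b* (0.0303) and *Ikzf5* (0.0335), against a median of 0.396 over all genes tested, and *Efr3a* had the same high and low libraries at 16.08, 22.11 and 8.99 TPM in control against 13.78, 16.67 and 10.06 TPM in cKO.

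*Lgr6*, known as a marker of stem cells in skin, was the second receptor by level and the most even of the 10 genes. Levels were 5.24, 5.20 and 3.82 TPM in control against 3.64, 4.51 and 3.84 TPM in cKO (chr1:134983301-135105276, minus strand). The highest library was 1.44 times the lowest, and control replicate 3 lay among the cKO libraries. Its log2 fold change was -0.20 (SE 0.22, 95% interval -0.71 to 0.31, unadjusted p = 0.393), and -0.32 without control replicate 3. *Lgr5*, known as a marker of stem cells in the intestine, was listed at 0.25, 0.53 and 0.17 TPM in control against 0.46, 0.44 and 0.18 TPM in cKO (chr10:115450311-115587780, minus strand), and the groups overlapped. *Lgr4* supplied 79.5% ± 4.29 (SD, n = 3) of the summed Lgr level in control and 79.9% ± 2.79 (SD, n = 3) in cKO, and *Lgr5* 1.17% ± 0.329 and 1.59% ± 0.513.

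**Figure D2:**
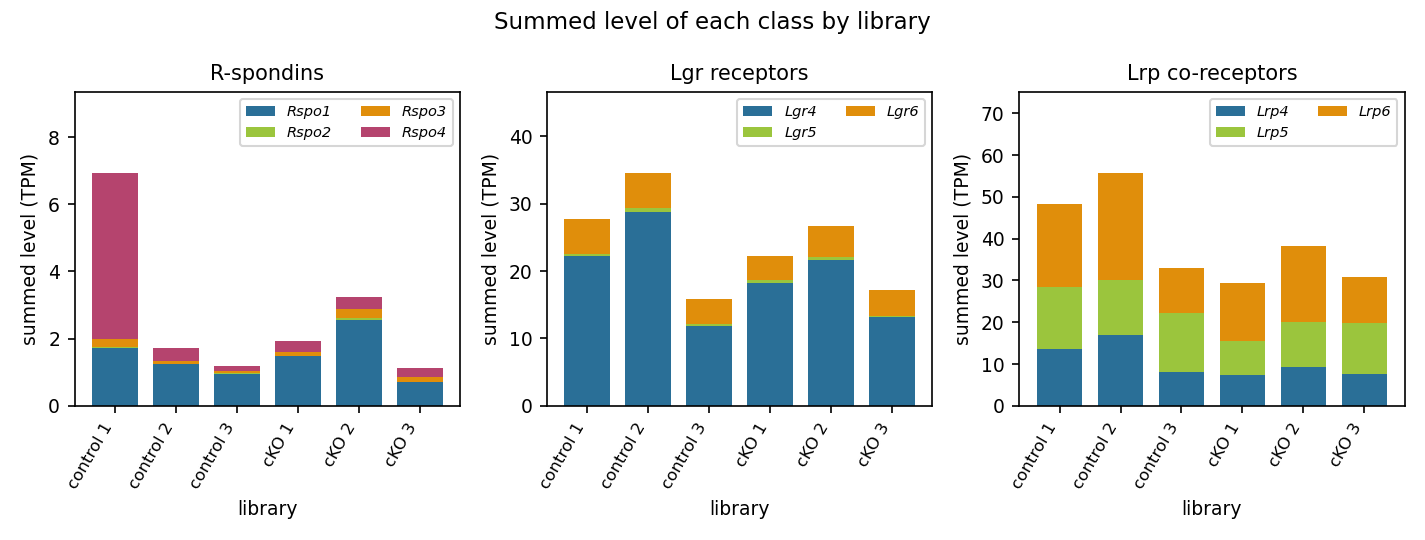
Summed level in TPM (vertical axis, from 0) of the R-spondins, the Lgr receptors and the Lrp co-receptors in each of the 6 libraries, stacked by gene. The R-spondin sum of control replicate 1 is 6.92 TPM, of which *Rspo4* is 71.4%, the Lgr sums are mostly *Lgr4*, and the Lrp sums are shared among the 3 co-receptors.

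*Lrp6* had the highest mean level of the co-receptors and is essential for Wnt signaling in the mouse embryo. It lies on chromosome 6 (chr6:134446476-134566965, minus strand). Levels were 19.91, 25.51 and 10.76 TPM in control replicates 1 to 3 and 13.84, 18.26 and 10.96 TPM in cKO replicates 1 to 3. As for *Lgr4*, replicate 2 was highest and replicate 3 lowest in both groups, and the groups overlapped. In cKO against control the log2 fold change was -0.31 (SE 0.34, 95% interval -1.10 to 0.48, unadjusted p = 0.384). Single libraries moved it, to -0.06 without control replicate 2, -0.64 without control replicate 3, -0.49 without cKO replicate 2 and -0.14 without cKO replicate 3. *Ibtk*, *Ankrd42* and *Rnf20* were the genes most like it (0.0289 to 0.0425, against a median of 0.401).

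*Lrp5*, known for its role in bone mass, was the co-receptor whose groups did not overlap. Levels were 14.67, 13.04 and 14.04 TPM in control replicates 1 to 3 and 8.02, 10.73 and 12.19 TPM in cKO replicates 1 to 3 (chr19:3584828-3686564, minus strand). Controls lay close together, and each cKO library was lower than the lowest control, with cKO replicate 3 nearest. The mean was 13.9 ± 0.822 TPM (SD, n = 3) in control and 10.3 ± 2.12 TPM (SD, n = 3) in cKO, or 74.1% of control, with a log2 fold change of -0.41 (SE 0.20, 95% interval -0.89 to 0.06). This did not pass the test (unadjusted p = 0.078 by limma), and the exact two-sided permutation test gave 0.1, the smallest p that 3 against 3 libraries allow. Without cKO replicate 1 the log2 fold change was -0.26. The sum of the blood and immune markers, mostly hemoglobin RNA, separated the groups in the same direction. Of its genes, *Hbb-bs* separated them, while the groups overlapped for *Hbb-bt*, *Hba-a1*, *Hba-a2*, *Ptprc*, *Cd68* and *Csf1r*. The part of these markers in the *Lrp5* value was not tested.

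*Lrp4* had the largest difference of the co-receptors over the 6 libraries, but *Lrp5* had a larger one without control replicate 2 (-0.46 against -0.34) or cKO replicate 3 (-0.54 against -0.52). Levels were 13.67, 17.06 and 8.07 TPM in control replicates 1 to 3 and 7.45, 9.36 and 7.63 TPM in cKO replicates 1 to 3 (chr2:91457511-91513779, plus strand). Control replicates 1 and 2 lay above all 3 cKO libraries, while control replicate 3 lay among them. The mean was 12.9 ± 4.54 TPM (SD, n = 3) in control and 8.15 ± 1.05 TPM (SD, n = 3) in cKO, or 63.0% of control. The log2 fold change of -0.56 (SE 0.28, 95% interval -1.22 to 0.11) did not pass the test (unadjusted p = 0.0875 by limma). This call depended on the processing and on control replicate 3, without which limma gave a log2 fold change of -0.84 (unadjusted p = 0.00877). Without control replicate 2 it was -0.34 (unadjusted p = 0.272 by limma), and without any other library the unadjusted p was 0.104 to 0.213. Leaving out control replicate 3 also raised the calls over all genes tested from 552 to 1159, of which 919 were lower. The median log2 fold change over all genes tested then went from -0.07 to -0.18. *Lrp4* also met the unadjusted criteria after quantile normalization (unadjusted p = 0.0391), after median-ratio scaling (unadjusted p = 0.0408) and after *Amelx*, *Ambn* and all noncoding genes were left out of the library total (unadjusted p = 0.0496), where *Lrp5* met them too (unadjusted p = 0.0472).

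The co-receptors differ in the part of the protein that carries the Wnt signal, and the stretches that set *Lrp5* and *Lrp6* apart from *Lrp4* are shown here because the RNA of all 3 was measured at like levels. The tails of Lrp5 and Lrp6 hold repeats of prolines followed by a serine or threonine and a further proline, which are phosphorylated on Wnt binding. The longest protein-coding transcript of each gene (GENCODE M21, GRCm38) was searched on its coding strand and in frame for the codons CCN CCN CCN, then TCN, ACN, AGC or AGT, then CCN, 15 bases in all. *Lrp5* held 3 such stretches and *Lrp6* held 3, all in the last 2 of their 23 exons, and *Lrp4* held 0 in its 5718 coding bases. Repeats that depart from this codon pattern were not counted. Of 21473 protein-coding genes searched the same way, 1.09% held a stretch and 5 held 3 or more. Each is printed from 5′ to 3′ with the searched codons in capitals and 6 bases on either side, and it is given with the position of the capitals, on the minus strand for both genes.
*Lrp5* exon 22, chr19:3586457-3586471: ctgaacCCACCCCCGTCCCCGgccaca
*Lrp6* exon 22, chr6:134453624-134453638: ttgaacCCACCACCATCGCCTgccaca
*Lrp5* exon 23, chr19:3585141-3585155: taccccCCCCCGCCCACCCCCcacagc
*Lrp6* exon 23, chr6:134450909-134450923: gtgcccCCACCGCCCACACCCcgaagc
*Lrp5* exon 23, chr19:3585048-3585062: ttcccgCCCCCACCGTCCCCCtgcacg
*Lrp6* exon 23, chr6:134450804-134450818: tacccgCCACCACCCTCCCCCtgcacg

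The summed level of each class was compared between the groups, and so was the balance of genes within a class, as a ratio in which the scaling of a library cancels. A trend of a library with transcript length or GC content, described below, does not cancel in such a ratio. Exact two-sided permutation tests of 3 against 3 libraries were run on the log2 of the 3 class sums and on 3 ratios, and adjusted over the 6. Their smallest p is 0.1, so none of the 6 could pass a threshold of 0.05, and the values are a description. The Lrp sum was 48.2, 55.6 and 32.9 TPM in control against 29.3, 38.4 and 30.8 TPM in cKO, a log2 difference of -0.45 (permutation p = 0.2). Control replicate 3 alone lay inside the cKO range. The Lgr sum was 27.7, 34.5 and 15.9 TPM in control against 22.3, 26.6 and 17.2 TPM in cKO (log2 difference -0.19, permutation p = 0.7), and its difference was 0.05 without control replicate 2. The R-spondin sum was 6.92, 1.71 and 1.20 TPM in control against 1.92, 3.23 and 1.12 TPM in cKO (log2 difference -0.34, permutation p = 0.8), and its difference turned to 0.41 without control replicate 1 and to 0.04 without cKO replicate 3. In each class the groups overlapped.

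The groups also overlapped for the 3 ratios. The ratio of *Lgr4* to *Lgr6* changed by 0.05 on the log2 scale (permutation p = 0.9), that of *Lrp5* to *Lrp6* by -0.12 (permutation p = 0.7) and that of *Lrp4* to the sum of *Lrp5* and *Lrp6* by -0.21 (permutation p = 0.3). All 6 adjusted p were 0.9. *Lrp5* exceeded *Lrp6* in 2 libraries, the replicate 3 library of each group, and was below it in the other 4. The genes with the longest transcripts also had their lowest median deviations in these libraries (-0.32 in control and -0.29 in cKO on the log2 scale). The part of transcript length in this ratio was not tested. The share of *Lrp4* in the Lrp sum was 27.9% ± 3.09 (SD, n = 3) in control and 24.9% ± 0.511 (SD, n = 3) in cKO.

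**Figure D3:**
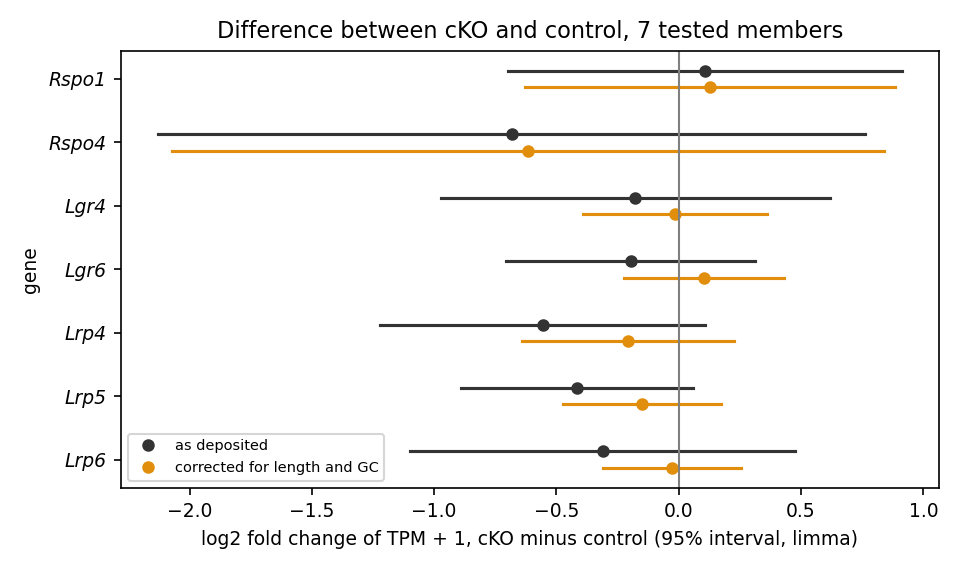
Log2 fold change of TPM + 1 (horizontal axis, cKO minus control) of the 7 tested genes, with points for the estimate and lines for the 95% interval from limma, as deposited in black and corrected for length and GC content in orange. Every interval crosses 0, and the Lrp estimates lie nearer to 0 after the correction, with *Lrp4* moving from -0.56 to -0.21.

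Many of these genes have long transcripts, and the libraries differed by transcript length. The protein-coding genes among those tested were put into 10 groups of nearly equal size by their longest transcript. The median log2 fold change went from 0.17 in the shortest group (114 to 1268 bases) to -0.30 in the longest (6677 to 40378 bases). *Lrp6*, with 9368 bases, and *Lrp4*, with 7926, belong to the longest group, and *Lgr6* (6675), *Lrp5* (5161) and *Lgr4* (5060) are longer than most tested genes. In control replicate 2 the longest group lay 0.56 above its mean over the 6 libraries and in control replicate 3 it lay 0.32 below (-0.32 on the log2 scale). *Lrp6* lay 0.66 above and -0.51 from its own mean in those libraries, and *Lgr4* at 0.61 and -0.60. *Lrp4* lay at 0.71 and -0.28, and *Lgr6* at 0.22 and -0.15. *Lrp5* did not follow, at 0.12 and 0.22 where its length group (5151 to 6675 bases) lay at 0.41 and -0.25.

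**Figure D4:**
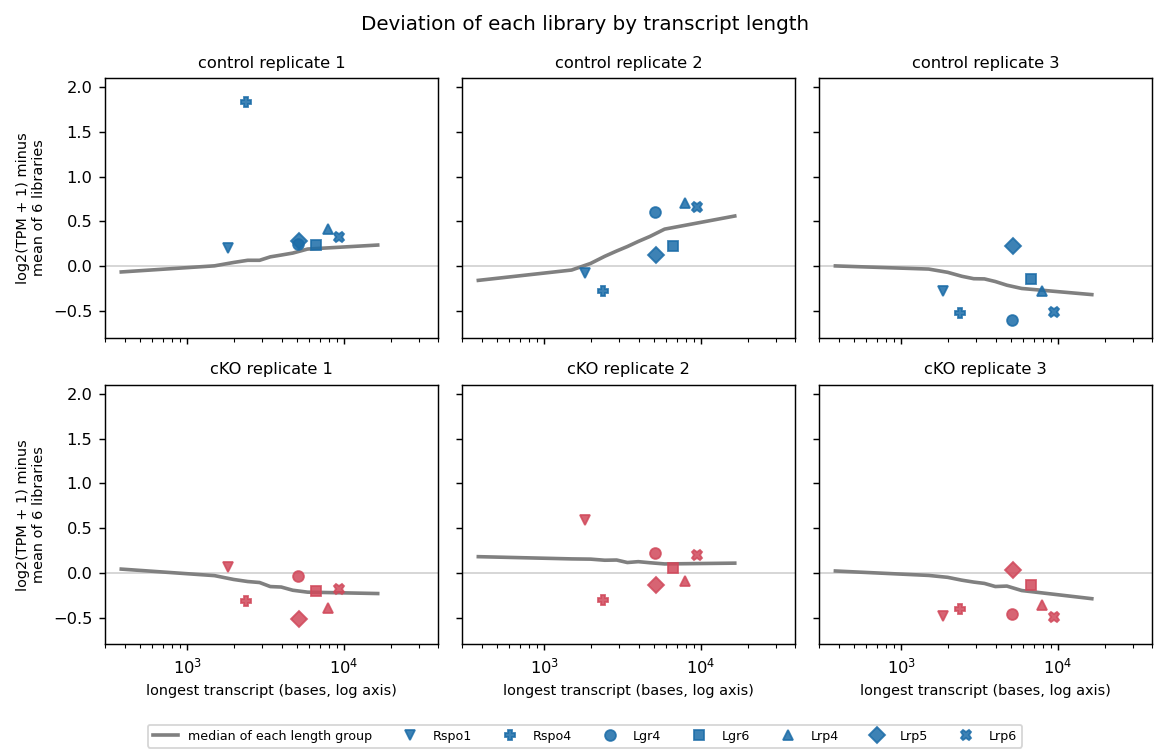
Deviation of log2(TPM + 1) from the mean of the 6 libraries (vertical axis) against the length of the longest transcript in bases (horizontal axis, logarithmic). Each library has a panel, with a marker for each of the 7 tested genes. A grey line runs through the medians of 10 length groups of the protein-coding genes tested. The line rises to 0.56 in control replicate 2 and falls to -0.32 in control replicate 3. *Lgr4*, *Lgr6*, *Lrp4* and *Lrp6* lie above and below 0 with it, while *Lrp5* lies above 0 in both. *Rspo4* in control replicate 1 lies at 1.84, away from the line.

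After each library was corrected for transcript length and GC content, the libraries agreed more closely for the long genes and the group differences were smaller. Length and GC content were corrected together, and their parts were not separated. GC content was 46.0% for *Lrp6*, 46.3% for *Lgr4*, 52.6% for *Lgr6*, 54.7% for *Lrp4* and 58.6% for *Lrp5*. The SD over the 6 libraries on the log2 scale went from 0.471 to 0.0845 for *Lrp6*, from 0.458 to 0.175 for *Lgr4*, from 0.191 to 0.0903 for *Lgr6*, from 0.455 to 0.242 for *Lrp4* and from 0.293 to 0.150 for *Lrp5*. The short genes hardly moved, with 0.375 and 0.382 for *Rspo1* and 0.904 and 0.895 for *Rspo4*. The corrected log2 fold change was -0.21 for *Lrp4* (SE 0.18, unadjusted p = 0.294 by limma), -0.15 for *Lrp5* (SE 0.14, unadjusted p = 0.309), -0.03 for *Lrp6* (SE 0.12, unadjusted p = 0.815) and -0.01 for *Lgr4* (SE 0.16, unadjusted p = 0.928). *Lgr6* turned from -0.20 to 0.10 (SE 0.14, unadjusted p = 0.475 by limma). Over all genes tested the corrected median was 0.00, and over the 6 tested genes other than *Rspo4* it was -0.02. The longest *Lrp5* transcript of any type has 8893 bases and is not the protein-coding one, and when lengths were taken from such transcripts, a choice made after seeing the data, the *Lrp5* value was -0.05. Whether the length trend came from the RNA, the library preparation or the epithelium was not tested.

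The genes that act on these receptors were described from lists of ligases and feedback genes, Lrp ligands and inhibitors, transducers, other LDL receptor family members and other leucine-rich repeat receptors. Of 57 listed genes 46 were tested, and 2 met the unadjusted criteria (4.35%, beside 4.02% of all genes tested), both lower in cKO and neither with an adjusted p below 0.05. *Apcdd1*, a membrane inhibitor of Wnt signaling that binds Lrp5, stood at 55.24, 48.40 and 44.99 TPM in control against 24.50, 19.24 and 44.92 TPM in cKO. The first 2 cKO replicates were far below the controls, and cKO replicate 3 lay just under the lowest of them (log2 fold change -0.81, unadjusted p = 0.0307 by limma). *Kremen1*, which takes Lrp6 off the membrane together with Dkk proteins, showed the same arrangement at 43.67, 48.47 and 44.54 TPM in control against 25.37, 27.75 and 41.14 TPM in cKO (log2 fold change -0.55, unadjusted p = 0.0328). Neither call remained after the correction for length and GC content, where *Apcdd1* was at -0.48 (unadjusted p = 0.264 by limma) and *Kremen1* at -0.31 (unadjusted p = 0.106 by limma). Both calls were also lost without any 1 of control replicates 1, 2 and 3 or cKO replicates 1 and 2, with values of -0.88 to -0.56 for *Apcdd1* and -0.58 to -0.42 for *Kremen1*.

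The count of pathway genes called was 3 after quantile normalization (649 of 13719 over all genes) and 3 after the correction (634 of 13707). These genes were others, named here after their values were seen. *Apc* was in both counts, *Tnfrsf19* and *Agrn* in the first, and *Nkd1* and *Lrp1* in the second. *Apc*, a scaffold of the complex that degrades beta-catenin, was called lower in 8 of 16 alternatives, more often than *Apcdd1* (6) or *Kremen1* (5). It stood at 29.10, 40.89 and 12.17 TPM in control against 12.69, 17.13 and 8.69 TPM in cKO, with a log2 fold change of -0.93 (unadjusted p = 0.0734 by limma) and of -0.62 after the correction (unadjusted p = 0.00474 by limma). *Nkd1*, a feedback inhibitor of Wnt signaling, went from 0.27 to 0.45 under the correction (unadjusted p = 0.0126 by limma), and *Lrp1*, a large endocytic receptor, from 0.02 to 0.47 (unadjusted p = 0.0368 by limma). *Tnfrsf19*, a listed feedback gene, was at -0.42 after quantile normalization (unadjusted p = 0.0399 by limma). After the correction it was at -0.27 (unadjusted p = 0.0653 by limma). *Agrn*, the gene of agrin, was at -0.35 (unadjusted p = 0.0465 by limma) and 0.07 (unadjusted p = 0.612 by limma) in turn. As deposited its cKO libraries were all below the controls, as for 6.13% of all genes tested. The log2 fold change there was -0.27 (unadjusted p = 0.133 by limma).

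By list, 8 of 11 tested ligases and feedback genes had a log2 fold change below 0 (median -0.30), 7 of 12 Lrp ligands, inhibitors and trafficking genes (median -0.04), 11 of 15 transducers (median -0.20) and 5 of 8 other LDL receptor family genes (median -0.09). Over all genes tested the share below 0 was 60.3%, with a median of -0.07. None of the 5 other leucine-rich repeat receptors (*Rxfp1*, *Rxfp2*, *Tshr*, *Lhcgr* and *Fshr*) reached the filter. After the correction for length and GC content the medians were -0.03, 0.06, -0.05 and 0.13 in the same order, and all genes tested had a median of 0.00.

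The ligases that R-spondins act on were both present. *Rnf43* was at 12.04, 14.49 and 11.04 TPM in control against 8.71, 8.57 and 11.63 TPM in cKO (log2 fold change -0.35, unadjusted p = 0.128 by limma), and *Znrf3* at 7.14, 12.23 and 5.55 TPM against 5.96, 6.84 and 5.90 TPM (-0.30, unadjusted p = 0.325 by limma). The groups overlapped for both. *Axin2*, a target and feedback inhibitor of Wnt signaling, was at 18.33, 25.59 and 18.60 TPM in control against 16, 12.58 and 17.80 TPM in cKO. The groups did not overlap, yet *Axin2* did not pass the test (-0.41, unadjusted p = 0.0985 by limma).

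*Sostdc1*, the inhibitor that binds Lrp4, was at 87.90, 83.89 and 93.76 TPM in control against 86.31, 103.23 and 92.97 TPM in cKO (log2 fold change 0.09, unadjusted p = 0.566 by limma). *Mesd*, the chaperone that Lrp5 and Lrp6 need to reach the cell surface, was at 20.35, 23.84 and 13.85 TPM in control against 14.86, 20.59 and 19.64 TPM in cKO (-0.05, unadjusted p = 0.837 by limma). For both, the groups overlapped, and *Sostdc1* RNA lay above that of *Lrp4* in every library.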

How the data were processed

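TruSeq libraries were made from total RNA of 6 pools of dental epithelium. According to the methods, SeqPrep and Sickle were used for trimming, HISAT2 for alignment and RSEM for gene abundance, whereas the submitters' processing notes name HISAT2 and StringTie. The methods name FPKM, but the deposited table holds TPM, as the library sums (983952 to 993946) show. Genome build and annotation are not given in the sources used here. Of 55487 gene identifiers, 99.5% were in GENCODE M21 (GRCm38), the source of positions, lengths and sequences.

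From the deposited TPM, log2(TPM + 1) was fitted with limma (version 3.58.1, R 4.3.3; trend, no block) for 13719 genes averaging 1 TPM or more, with Benjamini-Hochberg adjustment over all of them. Single values were compared by exact permutation (scipy 1.17.1). Length and GC content were corrected by natural splines (4 degrees of freedom each) through the deviations of each library for 13707 genes. The fit was tested on simulated data. TPM keep no depth, and p-values measure the spread between these pools.

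The 10 genes and all lists were chosen with earlier results of these data known. Also named are listed genes meeting the unadjusted criteria, *Rnf43*, *Znrf3*, *Sostdc1*, *Mesd*, *Axin2*, *Wnt10a* and the 3 genes most like the one with the highest control mean in each class. The 5 receptors under the filter were named after their values were seen. Alternatives were another pseudocount, no filter, 3 other scalings, the replicate block, the correction, Student's test and leaving out each library.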

Additional observations from a re-analysis of the deposited data

How the results depend on the processing

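For the 7 tested genes, 0 met the unadjusted criteria as reported, and the count was 1 after quantile normalization, 1 after median-ratio scaling and 2 after *Amelx*, *Ambn* and all noncoding genes were left out of the library total (rescaling). It was 0 to 1 when each library was left out in turn, and 0 in the other alternatives run without the block. At an adjusted p below 0.05 it was 0 under every alternative. Over all genes tested, the unadjusted criteria called 552 of 13719 as reported and 649 of 13719 after quantile normalization. They called 649 of 13661 after median-ratio scaling and 755 of 12625 after rescaling, 651 of these lower. Without each library in turn they called 204 to 1159 of 13719. *Lrp4*, *Lrp5* and *Lrp6* had a log2 fold change below 0 in 16 of 16 alternatives each (-0.84 to -0.21, -0.54 to -0.05 and -0.64 to -0.03). *Lgr6* reversed to 0.10 under the correction for length and GC content, to 0.10 with the replicate block added and to 0.10 with transcripts of any type. *Lgr4* ranged from -0.52 to 0.0835, *Rspo1* from -0.16 to 0.38 and *Rspo4* from -1.12 to 0.0647, and their reversals all came from leaving out a library, with values of 0.0835 and 0.0072 for *Lgr4*, -0.0048 and -0.16 for *Rspo1* and 0.0647 for *Rspo4*.

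For the class sums and ratios, leaving out each library gave -0.85 to 0.41 for the R-spondins, -0.51 to 0.0477 for the Lgr receptors, -0.67 to -0.29 for the Lrp co-receptors, -0.16 to 0.26 for *Lgr4* to *Lgr6*, -0.43 to 0.24 for *Lrp5* to *Lrp6* and -0.33 to -0.11 for *Lrp4* to the sum of *Lrp5* and *Lrp6*. The ratio of *Lgr4* to *Lgr6* reversed to -0.14 under the correction. Of the pathway genes, 2 were called as reported, 1 after median-ratio scaling, 5 after rescaling, 3 after quantile normalization, 3 under the correction, 0 by Student's test and 0 to 5 without each library in turn. All genes tested had 634 of 13707 called under the correction and 459 of 13719 by Student's test, with the other settings as given above. Where no value shows a cause of these shifts, the cause was not tested.

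The design text and the methods both speak of pairs of replicates without naming what a pair shares. Deviations of same-numbered libraries had correlations of -0.08, 0.29 and 0.40 over 13719 genes. These values do not settle whether same-numbered libraries are pairs, and the main fit did not pair them. With the replicate block, 1315 genes met the criteria in place of 552, among them 1 of the 7 tested genes (*Lrp4*, unadjusted p = 0.0264 by limma) and 4 pathway genes, or 6 pathway genes with the correction as well, *Apcdd1* among them (unadjusted p = 0.0402 by limma). With the block and the correction together, 1077 of 13707 genes met the criteria. The counting error of levels under 1 TPM cannot be estimated, because the depth is unknown.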
